A study of Zea mays with 6 samples.

Results

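liguleless1 (lg1, Zm00001d002005) and liguleless2 (lg2, Zm00001d042777) are 2 of the 45953 features counted in maize tassel meristems. They were chosen by name, as genes of the boundary between leaf blade and sheath that also act on the branches of the tassel, the male inflorescence. The names came with that choice and could not be checked here, because the reference table of RefSeq genes (assembly Zm-B73-REFERENCE-NAM-5.0) paired 0 of the 43789 nuclear identifiers with a symbol. It lists both lg1 and lg2 as synonyms, without these identifiers. The study compared plants of the inbred line B73 (WT, 3 libraries) with the tassel-less1 (tls1) mutant (3 libraries), which the labels give as cultivar B73 and boron deficient. Meristems 1 mm long were dissected from both genotypes under the same greenhouse feeding, at 238 ppm nitrogen and 0.08 ppm boron, and RNA with a poly-A tail was sequenced. The series' design places the sampling before the tassel looked abnormal. The labels do not give the tls1 allele, the number of backcrosses or the number of plants in a library.

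lg1 encodes a transcription factor of the SBP-box family, and lg2 one of the bZIP family. In the maize leaf both are needed for a normal ligule and auricle, the fringe and hinge where the blade meets the sheath, and lg2 is placed upstream of lg1 in that process. Loss of lg1 makes leaves and tassel branches stand upright, and loss of lg2 reduces the number of long branches at the base of the tassel. The tls1 gene encodes a boron channel, and its mutants form small or no tassels when boron is scarce. The comparison asked here is whether transcripts of these branch genes differ in the mutant meristem at an early stage.

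lg1 was detected at a low level in every library and was lower in tls1 than in WT within each same-numbered pair, but the difference did not pass the test. lg2 was detected in every library and was highest in the tls1 library numbered 1, and its genotype means did not differ beyond the spread between libraries. Neither gene was called in any of the fits that were run. Counted reads per library ran from 72498318 to 77619452. Levels are given as CPM, counts scaled to the total of their library. They are not divided by gene length, so the levels of lg1 and lg2 are not compared with each other. A count of 3 in a library, used as the floor, was 0.0387 to 0.0414 CPM, and every value of either gene lay above it.

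In WT, lg1 had 64 reads in library 1, 24 in library 2 and 16 in library 3, which is 0.825, 0.331 and 0.214 CPM. In tls1 it had 15, 11 and 7 reads, which is 0.201, 0.150 and 0.0937 CPM. The WT library numbered 1 stood well above the other 5 and held 61.5% of the 104 lg1 reads of WT. The 2 genotypes did not overlap, but they came within 1 read of each other. The lowest WT library (16 reads) and the highest tls1 library (15 reads) had a ratio of 0.942, with an exact 95% interval for counting error of 0.434 to 2.03.

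Averaged over libraries, WT had 0.456 ± 0.324 CPM of lg1 and tls1 had 0.148 ± 0.054 CPM (SD, n = 3 each), so the tls1 mean was 0.325 times the WT mean. On the log2 scale the change was -1.63 ± 0.62 (SE), with a 95% interval of -3.13 to -0.14. Its edgeR p was 0.0362 unadjusted and 0.269 after Benjamini-Hochberg adjustment over the 23349 tested genes. lg1 was therefore not called, at a threshold of 0.05 for the adjusted p. With the replicate number as a block the change was -1.51 ± 0.45 (SE), with an edgeR adjusted p of 0.170. Whether the 95% interval included 0 depended on the fit. It was -2.63 to -0.38 in edgeR with the block and -3.15 to -0.15 in DESeq2 without the block. In limma-voom it was -3.01 to 0.12, and in DESeq2 with the block -3.04 to 0.05. In tissue measured in bulk, fewer cells that express lg1 and less lg1 RNA per cell cannot be told apart.

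**Figure D1:**
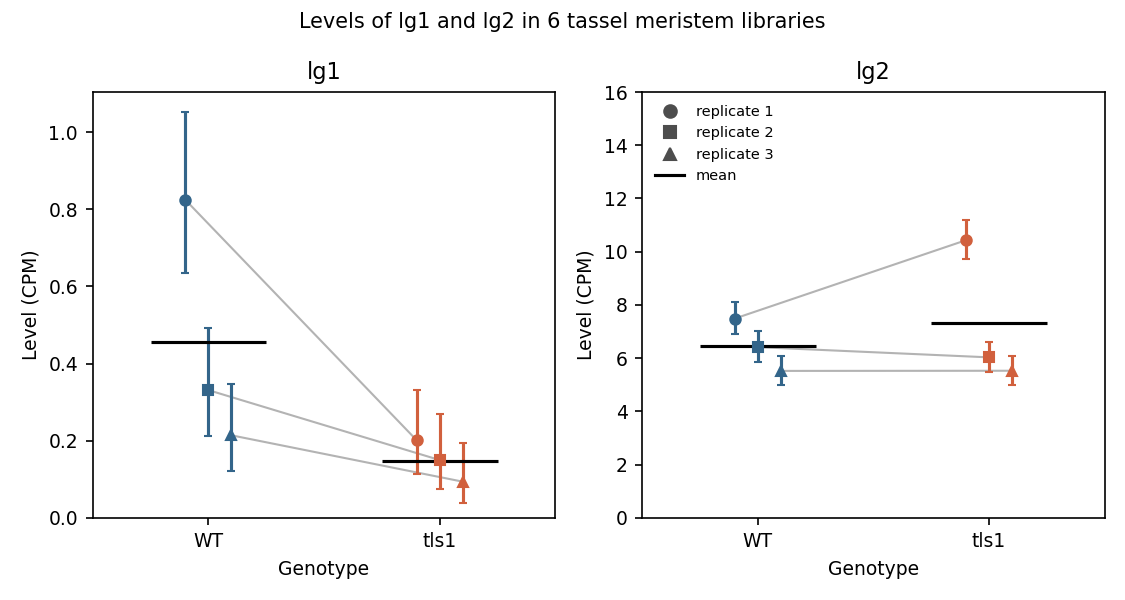
Level of lg1 (left) and lg2 (right) in CPM, on axes that start at 0, in the 3 WT and 3 tls1 libraries. Points are libraries with exact 95% Poisson intervals, which cover counting error only, grey lines join libraries of the same replicate number and black bars are genotype means. All 3 lines for lg1 run downward, from 0.825 to 0.201 CPM in the steepest, while for lg2 only the tls1 library numbered 1, at 10.4 CPM, stands apart.

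Within pair 1, lg1 in tls1 was 0.244 times its WT level, with an exact 95% interval of 0.129 to 0.433. Within pair 2 the ratio was 0.452 (0.200 to 0.959), and within pair 3 it was 0.438 (0.152 to 1.13). The direction was the same in 3 of 3 pairs. The interval of pair 3 included no change, and that of pair 2 came close to it. These intervals rest on the reads of 2 libraries each and compare those libraries, not the genotypes.

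The size of the lg1 change depended on the WT library numbered 1. Without that library the log2 estimate was -0.89 ± 0.56 (SE, edgeR adjusted p = 0.678), the smallest among the fits that left out 1 library. With both libraries numbered 1 left out, the means were 0.272 CPM in WT and 0.122 CPM in tls1 (n = 2 each), a ratio of 0.447. The log2 estimate was then -1.16 ± 0.65 (SE, edgeR adjusted p = 0.873).

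By direction alone, lg1 was one of many genes. All tls1 libraries lay below all WT libraries in 11.2% of the 23349 tested genes, and 21.3% were lower in tls1 within every same-numbered pair. At an unadjusted p under 0.05, 9.22% of the tested genes were lower in tls1 by edgeR without the block and 10.7% with it. At an adjusted p under 0.05, edgeR called 0 genes lower, while 1 gene was higher, together 0.00428% of those tested. With the block it called 0.694% in either direction and 0.201% lower, and lg1 was not among them. DESeq2 called 513 of 23792 genes lower without the block, and lg1 was not one of them either (DESeq2 adjusted p = 0.228). With the block DESeq2 called 734 of 23321 genes lower, again without lg1 (DESeq2 adjusted p = 0.298).

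The estimated size was more unusual than the direction. A log2 fold change at or below that of lg1 was found in 39 of the tested genes, lg1 included, which is 0.167%. Genes with few reads have scattered estimates, so the same count was made among the 3785 tested genes with a mean under 1 CPM, a limit chosen after the values were seen. There 25 genes, or 0.661%, had a change at or below that of lg1, and 5.76% had one at least as large in either direction, beside 1.55% of all tested genes. In the same class 4.83% of genes had all tls1 libraries below all WT libraries, and 11.5% were lower in tls1 in every pair. Most large estimates in that class were thus positive, and its median estimate was 0.18 on the log2 scale, beside 0.01 over all tested genes.

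**Figure D2:**
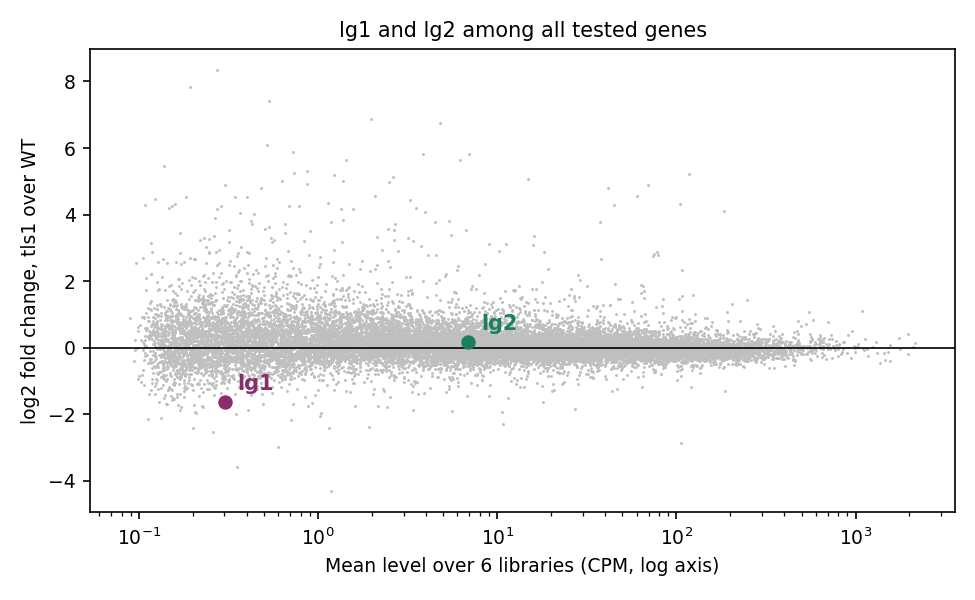
Log2 fold change of tls1 over WT (edgeR without the block) against the mean level over 6 libraries in CPM on a log axis, for the 23349 tested genes (grey), lg1 and lg2. The mark for lg1, at -1.63, lies at the lower edge of the cloud among genes under 1 CPM, and lg2, at 0.16, lies near its middle.

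lg2 had 581 reads in WT library 1, 465 in WT library 2 and 413 in WT library 3, which is 7.49, 6.41 and 5.52 CPM. In tls1 it had 777, 443 and 413 reads, which is 10.4, 6.03 and 5.53 CPM. The tls1 library numbered 1 was above every other library, and the other 5 libraries of both genotypes lay between 5.52 and 7.49 CPM. The genotypes overlapped, and the libraries numbered 3 had the same number of reads.

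Averaged over libraries, WT had 6.47 ± 0.98 CPM of lg2 and tls1 had 7.33 ± 2.70 CPM (SD, n = 3 each). The estimated change on the log2 scale was 0.16 ± 0.27 (SE, edgeR adjusted p = 0.811), with a 95% interval of -0.49 to 0.81. The interval runs from a level 0.710 times that of WT to one 1.75 times as high, so a change of moderate size in either direction was not detectable with these libraries. A change of lg2 as large as the estimate for lg1 lies outside it, but the interval of lg1 itself, -3.13 to -0.14, overlaps that of lg2. With the replicate block the lg2 estimate was 0.11 ± 0.17 (SE, edgeR adjusted p = 0.739), with an interval of -0.30 to 0.53. A log2 fold change no larger than that of lg2 in size was found in 48.8% of the tested genes.

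Within pair 1, lg2 in tls1 was 1.39 times its WT level, with an exact 95% interval of 1.25 to 1.55. In pair 2 the ratio was 0.940 (0.823 to 1.07), and in pair 3 it was 1.00 (0.871 to 1.15). The 3 pairs thus gave a higher, a slightly lower and an equal level, and counting error does not cover the gap between pair 1 and the others. Without the tls1 library numbered 1 the estimate changed sign, to -0.18 ± 0.19 (SE, edgeR adjusted p = 0.804).

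**Figure D3:**
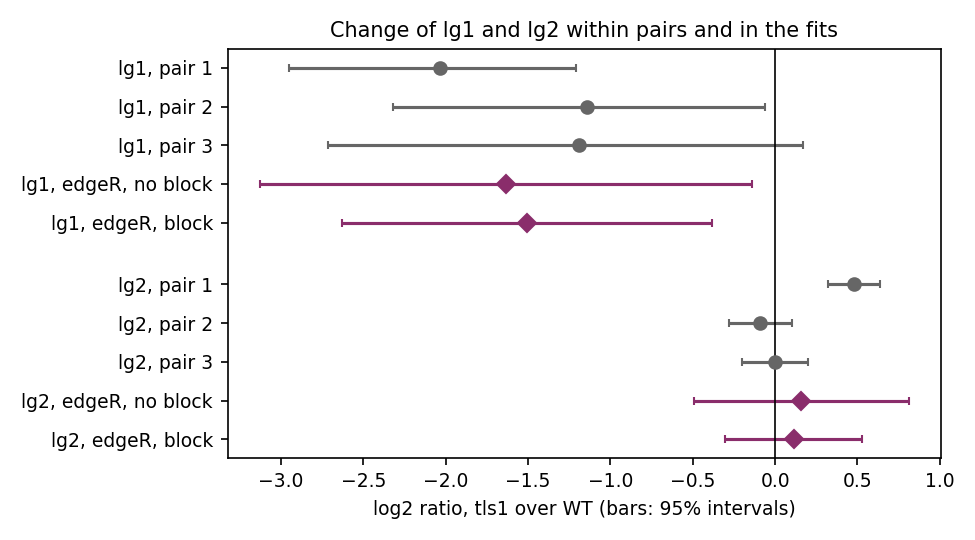
Log2 ratio of tls1 over WT for lg1 and lg2 within each same-numbered pair (grey circles) and in the edgeR fits without and with the replicate block (purple diamonds). Bars are 95% intervals, which cover counting error only for the pairs and the spread between libraries for the fits. All lg1 marks lie left of 0, from -2.03 to -1.14, and of the lg2 marks that of pair 1, at 0.48, is the only one whose bar stays clear of 0.

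The 2 genes were also compared within each library, as the number of lg1 reads per 100 lg2 reads, which does not depend on how libraries are scaled. In WT it was 11.02, 5.16 and 3.87 in libraries 1, 2 and 3. In tls1 it was 1.93, 2.48 and 1.69. The genotypes did not overlap, and the gap between them was wider than for lg1 alone. It lay between 3.87 in WT library 3 and 2.48 in tls1 library 2, which rest on 16 and 11 lg1 reads. No interval for counting error was computed for this gap, so it is not shown to exceed that error. The tls1 library highest in lg1, library 1 with 15 reads, also had the most lg2 reads (777), which put its value at 1.93. On the log2 scale the WT ratio averaged -4.05 ± 0.78 and the tls1 ratio -5.64 ± 0.28 (SD, n = 3 each), a difference of -1.59 (exact permutation p = 0.1, 2-sided). No smaller p can come from 3 against 3 libraries. The ratio was lower in tls1 in 3 of 3 pairs, with log2 differences of -2.51, -1.06 and -1.19, for which an exact sign-flip test gave p = 0.25, the smallest 3 pairs allow. In pair 1 both genes contributed, since lg1 was lower and lg2 higher in tls1, while in pairs 2 and 3 the log2 change of lg1 was -1.14 and -1.19 and that of lg2 was -0.089 and 0.0016.

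Both genes differed among libraries of the same genotype more than most genes did. Within genotypes, the pooled SD of log2 (CPM + 0.5) was 0.34 for lg1 and 0.36 for lg2, against a median of 0.14 over all tested genes and of 0.24 over those with a mean under 1 CPM, the class that holds lg1. Of the tested genes, 83.0% had an SD no larger than that of lg1 and 84.7% one no larger than that of lg2. The 0.5 CPM added is above most lg1 levels, so it shrinks the spread of lg1 far more than that of lg2. Without it the SD of log2 CPM was 0.99 in WT and 0.56 in tls1 for lg1, against 0.22 and 0.50 for lg2. Counting error is part of the lg1 spread, at 7 to 64 reads per library. The highest lg1 level was 3.86 times the lowest in WT and 2.15 times in tls1. For lg2 these ratios were 1.36 in WT and 1.89 in tls1, so lg1 was the more variable gene in WT relative to its level.

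The replicate numbers ranked alike in both genes. In WT and in tls1, and for lg1 as for lg2, the library numbered 1 was the highest and that numbered 3 the lowest. This order in both genotypes was found in 4.34% of the tested genes, and any one order shared by both genotypes in 21.8%. Across the 6 libraries the levels of lg1 and lg2 had a Pearson's r of 0.28 on the log2 (CPM + 0.5) scale, given as a description over libraries that share genotype and replicate number.

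The gene whose levels followed lg1 most closely over the 6 libraries, by Pearson's r on that scale, was Zm00001d002483 (r = 0.998). It had 47.6, 42.3 and 40.9 CPM in the WT libraries, in the order of their numbers, and 41.0, 39.6 and 39.0 CPM in those of tls1. For lg2 it was Zm00001d008222 (r = 0.991), with 0.348, 0.262 and 0.0802 CPM in WT and 0.712, 0.163 and 0.120 CPM in tls1. Neither has a name in the sources used here, and neither was called (edgeR adjusted p = 0.367 and 0.804). At a looser limit, an r over 0.9, 253 of the 23347 other tested genes (1.08%) matched lg1 and 263 (1.13%) matched lg2. How many came nearly as close as the first was not counted, and 6 libraries leave little to tell such genes apart. With 0.05 CPM added in place of 0.5, an alternative chosen after seeing the data, other genes came first, Zm00001d009183 for lg1 and Zm00001d003161 for lg2.

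As a set, genes listed next to lg1 in the count table did not share its estimate. Of the 50 rows within 25 of lg1, 29 were tested. Their median change was 0.05 on the log2 scale, and 13 were below 0. None was as low as lg1, at -1.63 ± 0.62 (SE). The lowest, 7 rows after lg1, was -1.39 ± 0.59 (SE), a gap from lg1 smaller than either SE. The rows just before and after lg1 had 0.45 and -0.16. Without the block edgeR called 0 of the 29, and an unadjusted p under 0.05 was found for 3. That is 10.3%, beside 16.5% of all tested genes. With the block, which called 0.694% of all tested genes, 1 of the 29 was called. This was Zm00001d002000, which had a log2 fold change of 2.62 (edgeR adjusted p = 0.0413 with the block). It was named after its values were seen. Of the 50 rows around lg2, 30 were tested, with a median of 0.09, a range from -1.48 to 1.26 and 14 below 0, and 0 were called with or without the block.

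**Figure D4:**
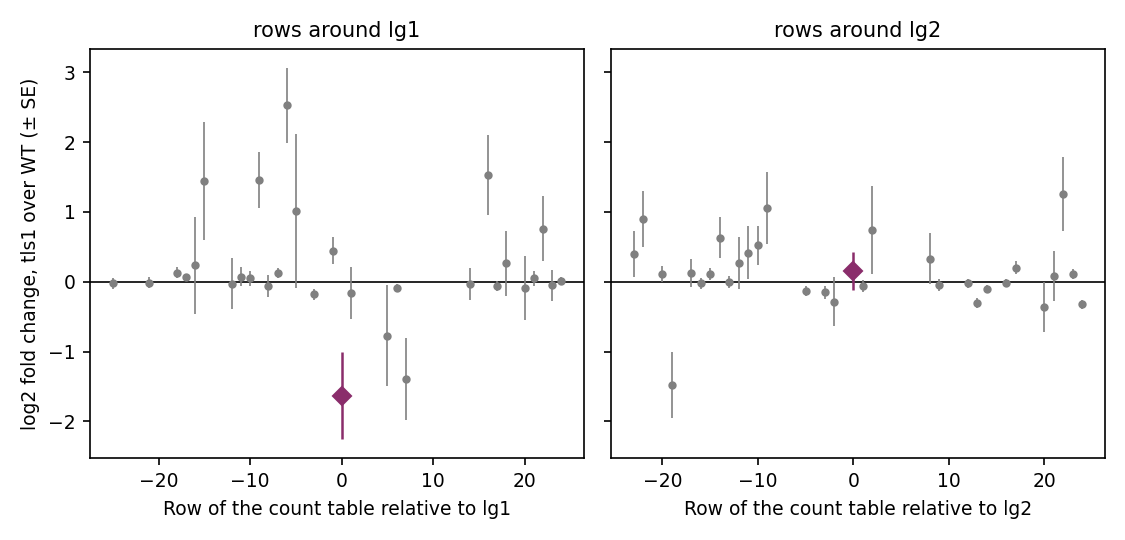
Log2 fold change of tls1 over WT (± SE, edgeR without the block) for tested genes within 25 rows of lg1 (left) and lg2 (right) in the count table, with the named gene as a purple diamond at 0. lg1, at -1.63, is the lowest of the 30 tested genes in its panel, while lg2, at 0.16, lies amid its neighbours.

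Other genes of ligule and inflorescence branching were listed by symbol, 47 in all with lg1 and lg2. The reference table held 33 of these symbols, but paired 0 with an identifier of the count table, so none can be described beside lg1 and lg2. The same held for the nuclear markers of meristem, leaf blade and vasculature, and the labelled tissue was not checked against them. Of the markers that could be found, the 7 plastid photosynthesis genes summed to 5.90, 3.24 and 3.80 CPM in WT, by library number, and to 1.84, 5.32 and 4.68 CPM in tls1. None of the 7 was at 0 in all libraries, and 1 was at 0 in the tls1 library numbered 2. The sum moved with lg1 in pair 1, where both were lower in tls1, and against it in pairs 2 and 3. Its part in the lg1 result was not tested, and in libraries enriched for poly-A RNA it need not measure the amount of green tissue.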

How the data were processed

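The submitters' processing notes name cutadapt for trimming and STAR for alignment. Program versions, the read counter, strandedness and genome build are not given, so reads of overlapping, antisense or near-identical genes cannot be told apart with certainty. The authors deposited raw read counts per gene, not normalized, for 6 libraries, and CPM was computed here from the column sums. The labels do not tie libraries to separate plants, so p-values reflect how these libraries vary, in part perhaps for technical reasons.

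The test was the quasi-likelihood F test of edgeR 4.0.16 (R 4.3.3) with TMM factors, filterByExpr (minimum count 10), genotype as the factor and Benjamini-Hochberg adjustment over 23349 genes. Both named genes passed the filter. lg1 did so with 3 WT and 2 tls1 libraries over its limit of 0.134 CPM. Alternatives were other normalization factors, filters and left-out libraries, removal of the 10 most abundant genes, limma-voom (limma 3.58.1) and DESeq2 1.42.0. Fits were tested on simulated counts. Exact tests and intervals used scipy 1.17.1. Exact intervals and floors cover counting error only, while the intervals of the fits cover the spread between libraries. The labels share replicate numbers between genotypes without saying what they mark. Deviations from the genotype means correlated between same-numbered libraries across genes at 0.378, 0.580 and 0.700, so the numbers were taken to pair the libraries, on the data alone.

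The genes, lists and tests were chosen with earlier results of these data known. The naming rule took lg1, lg2, the gene nearest to each in pattern and any listed gene with a paired symbol.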

Additional observations from a re-analysis of the deposited data

How the results depend on the processing

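lg1 kept its direction and stayed short of the threshold in all 20 alternatives, with log2 fold changes from -1.97 to -0.89 and adjusted p from 0.170 to 0.873. Both ends of the log2 range came from leaving out 1 library (-1.97 without WT replicate 3, -0.89 without WT replicate 1). The stricter filter left lg1 out, so it gave no value. As the lg1 levels of the genotypes did not overlap and every alternative reused these libraries, a reversal was hardly possible. lg2 stayed short of the threshold in all 21 alternatives (adjusted p from 0.541 to 0.999). Its log2 fold change turned negative in 3, each without the tls1 library numbered 1: -0.18 without tls1 replicate 1, -0.051 with the replicate block and without replicate 1, and -0.054 with both libraries numbered 1 left out, an alternative chosen after seeing the data. Leaving out 1 library gave lg2 values from -0.18 to 0.32. The log2 ratio of lg1 to lg2 was lower in tls1 in all 9 alternatives, by differences from -1.91 to -1.15. The genotypes did not overlap in this ratio either, and the same libraries were reused, so a reversal was again hardly possible. The replicate block changed no call of lg1 or lg2.

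The number of genes called went from 1 to 13 with no filter, 2 with limma-voom, 1197 with DESeq2, 162 with the edgeR replicate block and 1634 with DESeq2 and the block. With the block it was 433 without replicate 1, 159 without replicate 2 and 52 without replicate 3. It was 0 to 9 without 1 library and 0 with both libraries numbered 1 left out. The cause was not tested. A library held 7 to 64 lg1 reads and 413 to 777 lg2 reads, so relative to the level counting intervals were wider for lg1.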
